A study of Mus musculus with 20 samples.

Results

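S-phase B-MF were the cells of the B-MF cultures that carried many transcripts of the replicative helicase and few of the mitotic genes. B-MF are macrophages grown in culture from B cells of mouse bone marrow (BM), and S phase is the part of the cell cycle in which DNA is copied. A cell was taken as S-phase when its counts of Mcm5 and Mcm6 added to at least 8 and its counts of Ube2c and Cenpf added to less than 5. The rule selected 131 of 10563 B-MF. Library B-MF 1 held 79 of these among 5237 cells (1.51%, exact binomial 95% interval 1.20 to 1.88), and library B-MF 2 held 52 among 5326 cells (0.976%, 0.730 to 1.28). The intervals cover counting error only. The other B-MF were split by the same counts into 439 cells with Ube2c and Cenpf at 5 or more (G2/M B-MF, 225 and 214 cells in the 2 libraries) and 9993 remaining cells (rest B-MF, 4933 and 5060 cells).

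The study compared these macrophages with macrophages grown from monocytes (Mo-MF), each culture as 2 single-cell RNA libraries. According to the methods, Lin- B cells were sorted from BM of C57BL/CJ or BALB/CJ mice, without a statement of which strain gave these libraries, and adherent cells were harvested after 7 days in 4T1.2-CM, the conditioned medium of a mouse mammary carcinoma line. No transgene or drug is named for these cultures, and the labels do not say whether replicates came from separate mice. The p-values therefore measured differences between these groups of cells only against a spread between the 2 B-MF libraries. For each gene, limma pooled that spread over the 3 groups and drew it toward the spread of all genes. The prior from all genes had 3.3 degrees of freedom, beside 2 residual ones. The values were counts per gene and cell that had been corrected for sequencing depth with SCTransform, and they are called corrected counts here.

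Before a mammalian cell copies its DNA, the origin recognition complex, Cdc6 and Cdt1 load rings of the Mcm2 to Mcm7 proteins on the origins. Cyclin E with Cdk2 and the kinase Dbf4 with Cdc7 then fire these origins, Cdc45 and the GINS proteins turn the rings into active helicases, and the polymerases, the Pcna clamp and its loader copy both strands. E2F transcription factors switch on many of these genes late in G1, and the mitotic genes follow in G2. Macrophages are often regarded as cells that have left the cycle, although tissue macrophages can renew themselves, and CSF1 acting on Csf1r is a known signal for their division.

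Mcm5 and Mcm6 of the rule and the 3 further markers of these cells were also compared by their promoters, which the rule did not use. E2F proteins bind short words that include TTTCCCGC, TTTCGCGC, TTTGCCGC and TTTGGCGC, and these 4 words were searched on both strands of the 300 bases around each start (250 before and 50 after) in RefSeq promoters of GRCm38.p6. The sequences are shown 5′ to 3′ on the strand of the gene, since the 2 helicase genes of the rule and the 3 further markers each hold at least 1 of these 4 words, and the capitals mark the words or their reverse complements. For Mcm5 the window is chr8:75109259-75109558 on the + strand, for Mcm6 chr1:128359656-128359955 on the - strand, for Uhrf1 chr17:56304063-56304362 on the + strand, for Hells chr19:38930740-38931039 on the + strand and for Dtl chr1:191575495-191575794 on the - strand.
Mcm5: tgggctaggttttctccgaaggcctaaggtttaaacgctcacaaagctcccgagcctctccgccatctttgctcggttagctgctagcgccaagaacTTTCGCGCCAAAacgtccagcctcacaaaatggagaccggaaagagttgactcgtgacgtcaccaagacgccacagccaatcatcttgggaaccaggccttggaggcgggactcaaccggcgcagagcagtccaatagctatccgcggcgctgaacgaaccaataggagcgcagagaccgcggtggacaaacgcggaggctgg
Mcm6: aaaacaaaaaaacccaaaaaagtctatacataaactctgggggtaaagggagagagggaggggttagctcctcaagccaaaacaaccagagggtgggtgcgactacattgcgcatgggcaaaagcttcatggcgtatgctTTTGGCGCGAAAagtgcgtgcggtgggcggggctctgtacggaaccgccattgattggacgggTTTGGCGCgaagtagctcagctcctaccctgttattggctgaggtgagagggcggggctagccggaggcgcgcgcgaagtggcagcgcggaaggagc
Uhrf1: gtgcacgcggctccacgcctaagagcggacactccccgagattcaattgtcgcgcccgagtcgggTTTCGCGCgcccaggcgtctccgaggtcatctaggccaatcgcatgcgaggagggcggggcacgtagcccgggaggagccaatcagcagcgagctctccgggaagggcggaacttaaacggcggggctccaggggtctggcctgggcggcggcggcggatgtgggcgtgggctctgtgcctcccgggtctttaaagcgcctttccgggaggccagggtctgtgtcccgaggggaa
Hells: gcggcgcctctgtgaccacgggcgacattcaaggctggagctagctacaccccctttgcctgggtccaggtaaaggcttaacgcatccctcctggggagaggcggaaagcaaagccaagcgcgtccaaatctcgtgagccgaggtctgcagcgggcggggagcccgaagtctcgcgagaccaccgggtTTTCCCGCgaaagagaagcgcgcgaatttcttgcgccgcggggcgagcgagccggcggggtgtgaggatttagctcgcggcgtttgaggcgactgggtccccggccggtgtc
Dtl: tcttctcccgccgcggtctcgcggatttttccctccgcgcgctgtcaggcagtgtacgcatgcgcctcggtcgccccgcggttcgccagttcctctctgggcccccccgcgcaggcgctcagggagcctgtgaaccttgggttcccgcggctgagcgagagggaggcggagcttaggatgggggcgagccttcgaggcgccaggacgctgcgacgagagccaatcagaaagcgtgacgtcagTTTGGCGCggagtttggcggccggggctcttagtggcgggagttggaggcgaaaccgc

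In Mcm5, 2 words on opposite strands overlapped, at -153 and -149 from the start, and made 1 run of capitals. Mcm6 held such an overlapping pair at -110 and -106 and another word at -47. Uhrf1 held 1 word at -185 in 1 of its 2 promoters, Hells 1 at -62 and Dtl 1 at -8. Ube2c and Cenpf, the other 2 genes of the rule, held none of these words. Mcm2, Ung, Ccne1, Pcna, Timeless, Slfn9, Rrm2 and Tk1 also held none, while Mcm3, Mcm7, Cdc6 and Clspn held at least 1. Of all genes in the table, 11488 of 15855 had a promoter in the reference, and 495 of those (4.31%) held a word. Among the origin licensing and helicase genes, 6 of 12 genes with a promoter held one (50%), among the chromatin copying genes, Uhrf1 and Hells included, 5 of 9 (55.6%), among the checkpoint and repair genes, Dtl included, 5 of 12 (41.7%), among the G1/S regulators 5 of 13 (38.5%), among the replication fork genes 7 of 21 (33.3%) and among the ribosome biogenesis genes 3 of 13 (23.1%). A word was found in 1 of 20 G2/M genes, in 1 of 17 macrophage identity genes, in 0 of 9 deoxynucleotide synthesis genes and in 0 of 15 immediate-early genes. These are matches of letters and not mapped binding sites.

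Some properties of the libraries touch all results below. S-phase B-MF had more genes detected per cell (median 4908 and 4611.5 in the 2 libraries) than rest B-MF (3817 and 3355) and about as many as G2/M B-MF (4704 and 4554), while the median corrected total was 20182 and 19997 against 19255 and 18331 in rest B-MF. Between 4 and 14 cell barcodes were shared by any pair of the 4 libraries. Of the cells with a barcode shared by B-MF 1 and Mo-MF 1, 1 met the S-phase rule, and the count does not say which library held it. Collagen or decorin counts occurred in 3 of the 79 S-phase cells of B-MF 1, with up to 54 counts in a cell, and in none of the 52 cells of B-MF 2. Doublets were not searched for.

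By their transcripts S-phase B-MF were macrophages. Csf1r, the CSF1 receptor, had a count in 77 of 79 cells and 52 of 52 cells, Adgre1, which encodes F4/80, in 74 and 51, Cd68 in 77 and 52, and Lyz2, which encodes lysozyme, in all of them. Of 15 B cell and B precursor genes, 7 had no count in any S-phase B-MF, among them Cd79a and Pax5, where 0 of 79 and 0 of 52 cells allow a share of cells with a count of up to 3.8% and 5.77%, which does not limit the share of cells that express the gene. Ighm had a count in 15 of 79 and 8 of 52 S-phase cells (19.0% and 15.4%) and in 19.3% and 17.2% of rest B-MF, and Ebf1 in 2 of 79 and 0 of 52, with up to 21 counts in 1 cell. The summed mean of the B cell list was 4.08 and 3.31 in S-phase B-MF against 4.38 and 4.44 in rest B-MF, with Il7r, Blnk and Ighm the highest members. Neutrophil genes summed to 2.33 and 2.38 against 4.95 and 4.57 in rest B-MF, with Ngp, Camp, Ltf, Lcn2, Retnlg and Cxcr2 at 0. T and NK cell, mast cell and erythroid genes were at 0 throughout. Monocyte genes summed to 0.443 and 0.0962 against 0.0839 and 0.0789 in rest B-MF, and dendritic cell genes to 0.165 and 0 against 0.0276 and 0.0243. The fibroblast list stood at 1.0 in B-MF 1, from the 3 cells above, and at 0 in B-MF 2. The label therefore held for macrophage transcripts, and Cd79a and Pax5 were not detected at this depth.

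The cells were selected on the counts of Mcm5, Mcm6, Ube2c and Cenpf, and Uhrf1, Hells and Dtl served as markers, so the values of these 7 genes are given as a description. The markers were part of the fit and of the calls over all genes. They are left out of the list counts and list medians below, except where the text or a caption says that they are included. Mcm6, a subunit of the helicase ring, had a mean corrected count of 6.67 in S-phase cells of B-MF 1 and 5.87 in B-MF 2, where rest B-MF had 0.205 and 0.185 and G2/M B-MF 1.31 and 1.02. Mcm5, another subunit, had 4.18 and 3.98 against 0.113 and 0.117 in rest B-MF. The sum of both genes had a median of 10 and 9 and reached 20 and 17. Ube2c, the ubiquitin-conjugating enzyme of the anaphase-promoting complex, had 0.291 and 0.385 in S-phase cells against 11.6 and 10.6 in G2/M cells, and Cenpf, a kinetochore protein, 0.595 and 0.25 against 8.92 and 8.57. The separation from G2/M B-MF was a matter of degree at its edge, because 25 and 12 of the G2/M cells also had a sum of Mcm5 and Mcm6 of at least 8.

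**Figure D1:**
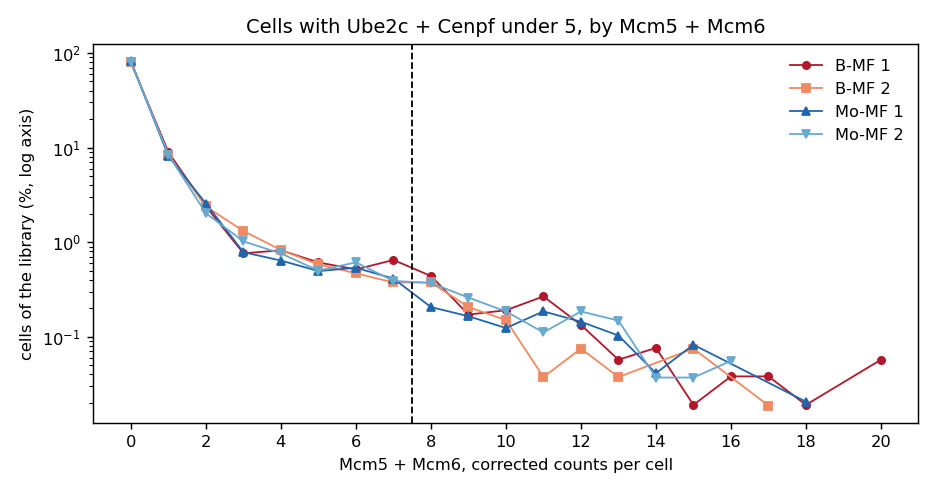
Share of all cells of a library (percent, log axis) at each summed count of Mcm5 and Mcm6 per cell, counting cells with Ube2c and Cenpf under 5, for the 2 B-MF and 2 Mo-MF libraries, with a dashed line at the threshold of 8. Every sum from 0 to 13 was held by cells of all 4 libraries, with no gap at the threshold.

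Uhrf1, which brings the maintenance methyltransferase to newly copied DNA, had a mean of 2.66 and 2.06 in S-phase B-MF, 0.0458 and 0.0518 in rest B-MF and 0.724 and 0.579 in G2/M B-MF. It was detected in 87.3% and 76.9% of S-phase cells and in 3.34% and 3.42% of rest cells. Hells, a chromatin remodeller needed for DNA methylation, had 2.22 and 1.27 against 0.0819 and 0.087 in rest B-MF and 0.36 and 0.248 in G2/M B-MF, with a count in 84.8% and 65.4% of S-phase cells and 6.35% and 6.40% of rest cells. Dtl, which targets Cdt1 for destruction once copying has begun, had 1.22 and 1.29 against 0.044 and 0.0419 in rest B-MF and 0.258 and 0.206 in G2/M B-MF, with a count in 75.9% and 65.4% against 3.55% and 3.18%. All 3 markers were thus higher in S-phase cells of both libraries than in either other fraction.

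Cells just outside the threshold already carried the markers. In B-MF 1 the 34 cells with a sum of 7 had a mean Uhrf1 of 1.0 and the 23 cells with a sum of 8 had 1.48, and in B-MF 2 the values were 1.90 in 20 cells and 1.90 in 20 cells. For Hells the means were 1.0 at 7 and 1.65 at 8 in B-MF 1 and 1.20 at both in B-MF 2, and for Dtl 0.5 and 1.04, and 1.0 and 1.15. Rest B-MF therefore held some cells with marker levels close to those of the members.

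The fractions were next compared over all genes. Each of the 3 fractions in each library was reduced to its mean corrected count per gene, and the 6 means were compared as log2(mean + 0.1) with limma, with the library as a block and Benjamini-Hochberg adjustment over 9208 genes. Differences on this scale understate the change of genes with low means. At an adjusted p of 0.05 or less, 4318 genes (46.9%) were higher and 658 (7.15%) lower in S-phase than in rest B-MF, and the median difference over all genes was 0.31. More genes were detected per S-phase cell, so the same fit was also run with rest cells matched one to one to S-phase cells on detected genes. It called 700 of 9404 genes higher (7.44%) and 375 lower (3.99%), with a median difference of -0.02. Of the 4318 higher calls, 696 were shared with the matched fit (16.1% of all and 99.4% of the matched calls), and of the 658 lower calls 248 were shared (37.7% and 66.1%). Matched rest cells were themselves nearer to the cycle, with a mean Mki67 of 0.392 and 0.692 against 0.168 and 0.169 in all rest cells. They were also far fewer, 79 and 52 in place of 4933 and 5060, so their means were less certain. The SE rose from 0.102 to 0.449 for Clspn and from 0.371 to 0.585 for Saa3, and fell from 0.224 to 0.144 for F13a1. How many calls ended through fewer cells alone was not tested. Each value from the matched cells is called matched below, and every adjusted p is from limma.

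The cell-cycle genes came first. They are read as a description, because the rule and the markers were cell-cycle genes of the same cells, and their counts of calls stand beside the 46.9% and 7.15% above without being read against them. Among 17 further genes of origin licensing and of the helicase, all 17 were called higher than in rest B-MF, and their log2 differences had a median of 2.80 (2.17 matched). Mcm2 had a mean of 2.18 and 1.77 in S-phase B-MF, 0.151 and 0.141 in rest B-MF and 0.52 and 0.449 in G2/M B-MF. Cdc6, a loader of the ring, had 0.962 and 0.846 against 0.0316 and 0.0348 in rest B-MF and 0.213 and 0.0794 in G2/M B-MF. Cdc45, part of the active helicase, had 1.11 and 0.865 against 0.0306 and 0.0243. Gmnn, the inhibitor that blocks a second round of licensing, had 5.23 and 4.6 against 0.659 and 0.618. Loader, helicase and inhibitor transcripts were thus all high in the same fraction. Against G2/M B-MF, a comparison with 8.04% of all genes called higher and 6.45% lower, 14 of the 17 were higher and 1 lower, which was Dbf4 with 1.01 and 0.75 against 1.92 and 1.75.

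All 26 replication fork genes were called higher than in rest B-MF (median 2.49, matched 1.81), and 25 of them were also higher than in G2/M B-MF. Pcna, the sliding clamp, had a mean of 4.54 and 4.96 in S-phase B-MF, 0.869 and 0.806 in rest B-MF and 2.56 and 2.0 in G2/M B-MF. Lig1, which joins the fragments of the lagging strand, had 4.22 and 3.54 against 0.23 and 0.205. Rfc1, of the clamp loader, had one of the smaller differences of the list, with 2.81 and 2.37 against 1.14 and 1.10. Clspn, which couples the fork to the checkpoint kinase, had 2.94 and 2.38 against 0.063 and 0.0605. Timeless and Dscc1, which accompany the fork, had 1.03 and 0.981 and 0.873 and 0.596 in S-phase B-MF and at most 0.2 in any other fraction.

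Supply of DNA precursors followed the same fractions but did not fall away in G2/M cells. All 10 deoxynucleotide genes were called higher than in rest B-MF (median 3.2, matched 2.30). Rrm2, the regulated subunit of ribonucleotide reductase, had 2.43 and 1.29 in S-phase B-MF against 0.0367 and 0.0275 in rest B-MF. In G2/M B-MF it had 2.11 and 1.57, with a difference from S-phase of -0.03 on the log2 scale that did not pass the test (adjusted p = 0.917). Tk1, a thymidine kinase, likewise had 3.03 and 2.06 against 3.24 and 2.65 in G2/M B-MF (adjusted p = 0.318). Dut, which removes dUTP, was the contrast, with 3.96 and 2.62 against 1.60 and 1.27 (log2 difference 1.12, adjusted p = 0.009). Of the 10 genes, 4 were called higher than in G2/M B-MF and none lower. De novo purine and pyrimidine synthesis genes, which act outside S phase too, were called higher in 13 of 13 cases with a smaller median of 1.32, and in 8 with matched cells (0.74). Ppat, which starts the purine pathway, had 0.684 and 0.615 against 0.147 and 0.13 in rest B-MF.

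Genes that copy chromatin and its marks, with the markers Uhrf1 and Hells left out, were called higher in 8 of 8 cases (median 2.82, matched 1.98). Dnmt1, the maintenance DNA methyltransferase, had 3.81 and 3.06 against 0.596 and 0.599 in rest B-MF and 1.73 and 1.58 in G2/M B-MF. Chaf1b, a subunit of the assembly factor that loads histones behind the fork, had 2.06 and 1.17 against 0.0953 and 0.086. Asf1b, a chaperone of new histones, differed in order from these, with 1.41 and 1.21 in S-phase B-MF and 2.17 and 1.86 in G2/M B-MF. With the marker Dtl left out, all 16 checkpoint and repair genes were called higher than in rest B-MF (median 2.35, matched 1.84), and 12 were higher than in G2/M B-MF. Ung, which removes uracil from DNA, had the highest log2 difference from G2/M B-MF of all genes that passed the test, markers included. It had 1.25 and 0.577 in S-phase B-MF, 0.029 and 0.0271 in rest B-MF and 0.0311 and 0.014 in G2/M B-MF, with a count in 54 of 79 and 24 of 52 S-phase cells and in 6 of 225 and 3 of 214 G2/M cells. After Ung (log2 difference 2.97), and with the markers left out (Hells 2.15, Dtl 2.03), the highest genes against G2/M B-MF were Mcm4, Cdc6, Timeless, Ccne2 and Dscc1 (1.94 to 2.08). Pttg1, Ccnb2, Cenpa, Cdkn3, Plk1 and Aspm were the lowest (-4.02 to -3.00).

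**Figure D2:**
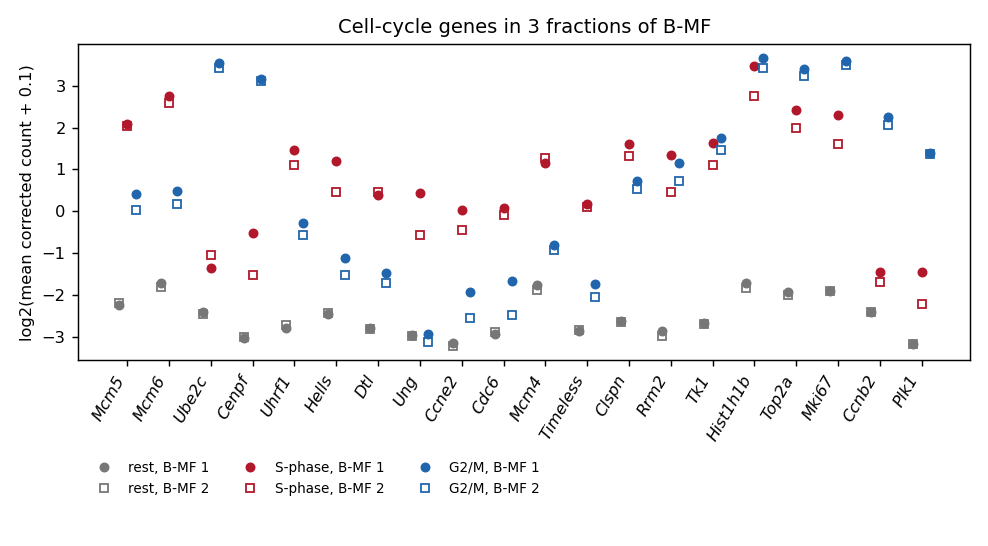
Mean corrected count of 20 cell-cycle genes, as log2(mean + 0.1), in rest (grey), S-phase (red) and G2/M (blue) B-MF, with filled circles for library 1 and open squares for library 2. Licensing and fork genes such as Cdc6, Mcm4 and Timeless peaked in S-phase cells, Rrm2 and Tk1 were at like levels in S-phase and G2/M cells, and mitotic genes peaked in G2/M cells.

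Of the regulators of the G1 to S step, 17 of 19 passed the filter and 16 were called higher than in rest B-MF (median 1.85). With matched cells 11 were higher and 1 lower (median 1.28), the latter being Rb1 (0.456 and 0.442 against 0.508 and 0.477 in all rest cells, matched log2 difference -0.60). Ccnd1, the cyclin that links growth signals to the cycle, had 8.16 and 9.54 in S-phase B-MF, 2.22 and 2.15 in rest B-MF and 4.41 and 3.21 in G2/M B-MF. Ccne1 and Ccne2, the cyclins of origin firing, had 1.37 and 1.21 against 0.072 and 0.0587, and 0.924 and 0.635 against 0.0134 and 0.00751. E2f1 had 1.90 and 1.79 against 0.392 and 0.33.

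The brakes of the cycle went the other way for the most part. Of 13 such genes tested, 9 were called lower and 2 higher than in rest B-MF (median -0.59), and 6 of 12 were lower and 1 higher with matched cells (median -0.60). Btg2, an antiproliferative gene that p53 and growth signals induce, had a mean of 1.67 and 1.58 in S-phase B-MF and 5.36 and 4.65 in rest B-MF (log2 difference -1.56, SE 0.105; matched -1.37). Cdkn1a, the p21 inhibitor of cyclin E and Cdk2, had 6.35 and 5.67 against 9.38 and 8.85 (-0.59; matched -0.60), so it stayed detectable at sizeable levels in the S-phase fraction. Cdkn2c and Cdkn2d, inhibitors of Cdk4 and Cdk6, were the 2 called higher. Cdkn2c stood out with matched cells too, at 1.05 and 0.942 against 0.452 and 0.389 in all rest cells, and it was still higher in G2/M B-MF (3.52 and 3.31).

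G2/M genes were part of the S-phase profile even though the rule removed cells with high Ube2c and Cenpf. Of 24 tested, 23 were called higher than in rest B-MF and 1, Cenpa, lower (median 2.42), and all 24 were called lower than in G2/M B-MF. Mki67, the proliferation marker Ki67, had a count in 61 of 79 and 35 of 52 S-phase cells, with a mean of 4.81 and 2.96 against 0.168 and 0.169 in rest B-MF and 12 and 11.1 in G2/M B-MF. Top2a, a topoisomerase that untangles copied DNA, had 5.28 and 3.90 against 0.163 and 0.149, and 10.4 and 9.32 in G2/M B-MF. The late gene Ccnb2, which encodes cyclin B2, was low at 0.266 and 0.212, beside 4.64 and 4.07 in G2/M B-MF, and its difference from rest B-MF of 0.84 turned to -0.11 with matched cells. Cenpa, the histone variant of the centromere, had 0.759 and 0.885 in S-phase B-MF, 1.53 and 1.46 in rest B-MF and 9.76 and 9.42 in G2/M B-MF.

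Histone genes split into groups that moved in opposite directions. Only 27 of the 66 histone genes in the table passed the filter on low means, and near-identical copies may have shared reads, so single members are uncertain. Of these 27, 17 were called higher and 5 lower than in rest B-MF, and 12 higher and 4 lower with matched cells. Against G2/M B-MF none was called higher and 22 lower (median -1.04). Hist1h1b, a linker histone made in S phase, had the largest increase of all genes tested, with 11 and 6.65 in S-phase B-MF against 0.208 and 0.18 in rest B-MF (log2 difference 4.88; matched 4.27), and 12.5 and 10.7 in G2/M B-MF. Hist1h2ap had 13.8 and 10.7 against 0.749 and 1.01, and 19.8 and 23.4 in G2/M B-MF. Hist1h1b had a count in 81.0% and 67.3% of S-phase cells and in 58.7% and 63.6% of G2/M cells. Histone counts therefore did not set S-phase cells apart from G2/M cells. Both names come from the counts of the rule, and whether G2/M B-MF held cells still copying DNA was not tested. In the other direction, Hist1h2bc had 0.722 and 0.885 against 3.34 and 3.08 (-1.88; matched -1.74), Hist1h1c 1.41 and 1.46 against 3.27 and 3.06 (-1.09; matched -1.0), and Hist1h4i and Hist3h2a were also called lower with matched cells. The linker histone H1f0 was at 0.962 and 0.846 against 0.97 and 0.874.

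S-phase B-MF also varied among themselves. The summed count of 5 S-phase histone genes (Hist1h1a, Hist1h1b, Hist1h1e, Hist1h2ae and Hist1h2ap) was under 5 in 22 of 79 and 19 of 52 cells, had a median of 10 and 6, and reached 188 and 146. Cells with a low histone sum had less of the helicase genes outside the rule, with Mcm2 at 1.82 against 2.32 in B-MF 1 and 1.16 against 2.12 in B-MF 2, and Mcm7 at 2.64 against 3.60 and 1.74 against 3.18. They also had less Rrm2 (1.09 against 2.95, and 0.105 against 1.97), less Clspn (1.68 against 3.42, and 1.11 against 3.12), less Ccne1 (0.5 against 1.70, and 0.474 against 1.64) and less Mki67 (1.68 against 6.02, and 1.53 against 3.79). Ung was at 1.27 against 1.25 and 0.474 against 0.636, and Csf1r at 7.41 against 8.12 and 9.42 against 7.97. Hells was at 2.27 against 2.19 in B-MF 1 and 0.789 against 1.55 in B-MF 2, and E2f1 at 1.68 against 1.98 and 1.79 against 1.79, so not every gene of the cycle followed the histone sum. Across the S-phase cells of each library Spearman's rho of Mki67 with the histone sum was 0.74 and 0.58 (n = 79 and 52 cells), and that of detected genes with the histone sum was 0.23 and 0.32. These rho are descriptions over cells of 1 library each, which share depth correction and detection.

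Outside the cell cycle, the rule used none of the genes. Leaving out the rule's genes and the markers Uhrf1, Hells and Dtl, the 12 genes with the largest increase over rest B-MF were, with the histones, replication and mitosis genes except Slfn9, a member of the Schlafen family. Slfn9 had a mean of 3.52 and 2.42 in S-phase B-MF, 0.139 and 0.128 in rest B-MF and 1.09 and 0.799 in G2/M B-MF (log2 difference 3.69, SE 0.131, adjusted p = 0.000143; matched 2.90, adjusted p = 0.00973). In both libraries the S-phase value was above both other fractions. The other 11 were Hist1h1b, Top2a, Clspn, Tk1, Pclaf, Mki67, Rrm2, Mcm7, Hist1h2ap, Lig1 and Rad51ap1, with log2 differences of 3.54 to 4.88.

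Saa3, Arg2 and Il1b were among the 12 genes with the largest decrease. Saa3, an acute-phase protein that macrophages secrete on activation, had 0.114 and 0.288 in S-phase B-MF against 5.67 and 4.57 in rest B-MF (-4.17, SE 0.371, adjusted p = 0.00107), but with matched cells the difference was -2.34 and missed the threshold (adjusted p = 0.0573), with -3.72 in B-MF 1 and -0.96 in B-MF 2. Arg2, a mitochondrial arginase, had 0.0886 and 0.0769 against 0.918 and 0.77 (-2.37, SE 0.105, adjusted p = 0.000215; matched -1.80, adjusted p = 0.00465). Its S-phase means, and those of Bex1 below (0.0759 and 0.115), lay near the added 0.1 and rest on few counts in 79 and 52 cells. The SE is the moderated spread between libraries and may understate counting error at such levels. Il1b, the cytokine interleukin-1 beta, had 0.316 and 0.308 against 1.37 and 1.10 (-1.69, adjusted p = 0.000472; matched -0.94, adjusted p = 0.0338). These 3 genes were lower in S-phase than in rest cells in both libraries. On the log2 scale, Thbs1, an adhesive matrix protein, fell by 1.75, Abca1, which exports cholesterol, fell by 1.75, Jaml, an adhesion molecule, fell by 1.61, and Bex1 fell by 1.59, and these calls held with matched cells (adjusted p = 0.0297, 0.0438, 0.00821 and 0.0261). F13a1, a clotting factor subunit, and Pla2g7, a phospholipase, fell by 1.57 and 1.56 against all rest cells, while their matched differences of -0.41 and -0.73 did not pass the test (adjusted p = 0.125 and 0.135). Abca1 had 0.354 and 0.712 in S-phase B-MF, and Pla2g7 had 0.734 and 1.65, so the libraries differed for both, and the difference of Pla2g7 was -0.98 without B-MF 1. Its matched difference was -1.29 in B-MF 1 and -0.16 in B-MF 2, and that of Abca1 was -2.14 and -0.73. Among the 12 genes, Arg2, Hist1h2bc, Thbs1 and Bex1 were also called lower than in G2/M B-MF (adjusted p = 0.00547, 0.0091, 0.0158 and 0.00511). The others did not pass that test. G2/M B-MF had 0.28 and 0.271 for Il1b, 0.502 and 0.458 for Abca1 and 0.991 and 1.25 for Pla2g7 (adjusted p = 0.425, 0.874 and 0.992).

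Macrophage identity genes were lower or did not pass the test. Of 24 tested, none was called higher and 13 lower (54.2%; 7.15% of all genes), with a median of -0.36, and 4 were lower with matched cells (median -0.18, or -0.31 in B-MF 1 and -0.08 in B-MF 2, with 3.99% of all genes lower). Cebpb, a transcription factor of inflammatory myeloid genes, had 3.85 and 4.21 in S-phase B-MF against 9.24 and 8.57 in rest B-MF (-1.12, adjusted p = 0.00126; matched -0.72, adjusted p = 0.0347). Fcgr3, an IgG receptor, had 13.8 and 14.1 against 22.6 and 22.3 (-0.69, adjusted p = 0.00264; matched -0.60, adjusted p = 0.0398). Mertk, a receptor for apoptotic cells, and Cebpa were the other genes called with matched cells. Csf1r had 7.92 and 8.50 against 11.3 and 11 (-0.44, adjusted p = 0.011; matched -0.38, adjusted p = 0.128). Cd68, the endosomal glycoprotein, was at 34.4 and 35.1 against 36.2 and 36.6, and its difference did not pass the test (-0.07, SE 0.0838, adjusted p = 0.527). Mrc1, the mannose receptor, was at 10.8 and 13.4 against 11.4 and 11.3 (adjusted p = 0.637).

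Apoe, a lipid carrier, was called lower against all rest cells and not against matched ones. S-phase B-MF had 39.3 and 76.8 against 152 and 144 in rest B-MF (-1.43, SE 0.309, adjusted p = 0.0138), and the 2 libraries differed in size, with -0.90 without B-MF 1. Matched rest cells had 90.5 and 62.7, and the matched difference was -0.45 (adjusted p = 0.433), with -1.20 in B-MF 1 and 0.29 in B-MF 2. G2/M B-MF had 47.9 and 38.3, and the difference of S-phase from G2/M cells did not pass the test (adjusted p = 0.469). MHC class II genes, which present antigen, also lost their calls. Of 5 tested, 4 were called lower (median -1.37, with 7.15% of all genes lower) and none with matched cells (3.99%), where the median of 0.05 hid opposite library medians of 1.55 in B-MF 1 and -1.45 in B-MF 2. H2-Aa had 0.468 in B-MF 1 and 0.0769 in B-MF 2 against 1.04 and 0.952 in rest B-MF, and Cd74, the invariant chain, 2.99 and 0.769 against 4.2 and 3.72, so the difference was larger in B-MF 2, and without it those of H2-Aa and Cd74 were -1.01 and -0.48, against -2.14 for Cd74 without B-MF 1. Lysosome genes were called lower in 8 of 18 cases (median -0.23, with 7.15% of all genes lower) and in none with matched cells (3.99%), although the matched median was -0.20 and 15 of 18 were still on the lower side, and none was called higher in either. Ctss, a cathepsin, had 31.7 and 30.6 against 54.1 and 52.0 (-0.77, adjusted p = 0.00183; matched -0.35, adjusted p = 0.172).

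Immediate-early genes, which cells switch on within minutes of a stimulus or of handling, were lower in S-phase B-MF for the most part. Of 18 tested, 12 were called lower and none higher (median -0.79, with 7.15% of all genes lower and 46.9% higher), and 8 stayed lower with matched cells (median -0.71, with 3.99% of all genes lower). Junb had 5.89 and 4.92 in S-phase B-MF against 15.8 and 14.5 in rest B-MF (-1.47, SE 0.103, adjusted p = 0.000627; matched -1.18, adjusted p = 0.0083). Fos had 10.7 and 10.4 against 19.5 and 19.0 (-0.86, adjusted p = 0.00142; matched -0.84, adjusted p = 0.0204), and Egr1 4.13 and 4.33 against 7.61 and 7.15 (-0.79, adjusted p = 0.00227; matched -0.82, adjusted p = 0.0224). In G2/M B-MF, Junb was at 5.90 and 6.01, Fos at 9.48 and 9.72 and Egr1 at 3.8 and 3.50, and no gene of the list passed the test between S-phase and G2/M B-MF.

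**Figure D3:**
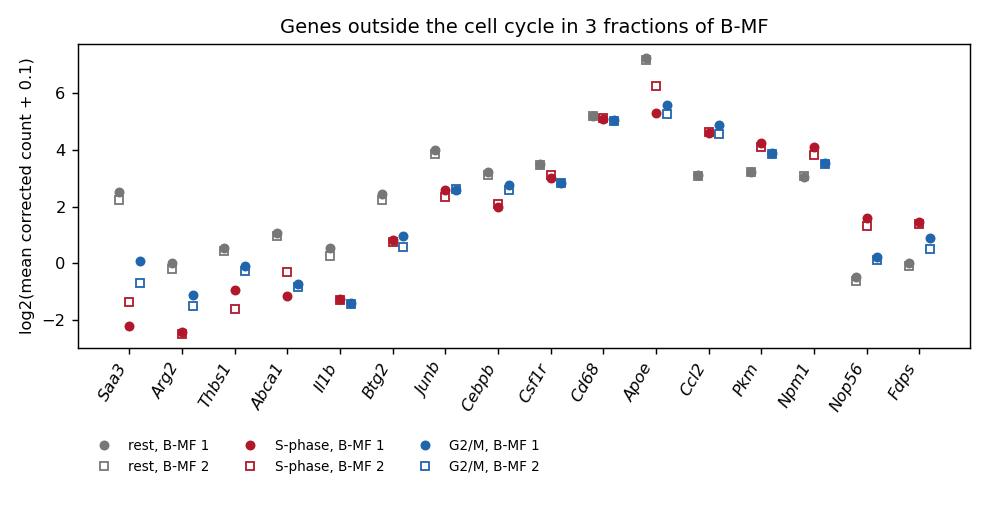
Mean corrected count of 16 genes outside the cell cycle, as log2(mean + 0.1), in rest (grey), S-phase (red) and G2/M (blue) B-MF, with filled circles for library 1 and open squares for library 2. Junb, Btg2 and Il1b were lower and Ccl2, Npm1 and Pkm higher in S-phase than in rest cells of both libraries, and Cd68 was at 34.4 and 35.1 against 36.2 and 36.6.

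Of 16 chemokines and cytokines tested, 3 were called higher (Ccl2, Ccl7 and Ccl12) and 7 lower (median 0.03), where 46.9% of all genes were higher and 7.15% lower. With matched cells none was called higher and 3 lower (7.44% and 3.99% of all genes), which were Il1b, Vegfa and Ccl24. Ccl2, a chemokine that attracts monocytes, had 24.0 and 25.0 in S-phase B-MF against 8.68 and 8.44 in rest B-MF (1.51, SE 0.122, adjusted p = 0.000843), but the matched difference of 0.78 missed the threshold (adjusted p = 0.0533). Ccl7, a related chemokine, had 14.7 and 17.2 against 5.81 and 5.63 (1.46, adjusted p = 0.00204; matched 0.70, adjusted p = 0.103). G2/M B-MF had similar means, 29.6 and 23.4 for Ccl2 and 17.3 and 12.8 for Ccl7. Ccl8 had 2.11 and 3.94 against 7.47 and 6.78 (-1.27, or -0.77 without B-MF 1, adjusted p = 0.0102; matched -0.10, adjusted p = 0.812). Vegfa, which drives vessel growth, had 0.468 and 0.481 against 1.14 and 0.993 (-1.02, adjusted p = 0.00134; matched -1.07, adjusted p = 0.00973).

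Genes for growth were higher. All 15 ribosome biogenesis genes tested were called higher than in rest B-MF (median 1.03, with 46.9% of all genes higher), and 10 with matched cells (median 0.81, with 7.44% of all genes higher). Nop56, a core protein of the particles that modify ribosomal RNA, had 2.96 and 2.38 in S-phase B-MF, 0.612 and 0.549 in rest B-MF and 1.08 and 0.991 in G2/M B-MF (2.02, SE 0.0949, adjusted p = 0.000245; matched 1.49, adjusted p = 0.00526). Npm1, a nucleolar chaperone, had 17.0 and 14.1 against 8.25 and 8.33 (0.89, adjusted p = 0.00213; matched 0.68, adjusted p = 0.0333). Against G2/M B-MF, 9 of the 15 were called higher and none lower (8.04% of all genes higher).

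Glycolysis genes were called higher in 13 of 15 cases (median 0.65, with 46.9% of all genes higher) and in 4 with matched cells (median 0.47, against 7.44%), which were Pkm, Pgk1, Ldha and Tpi1. Pkm, a pyruvate kinase, had 18.8 and 17.1 against 9.16 and 9.27 in rest B-MF (0.95, adjusted p = 0.00125; matched 0.62, adjusted p = 0.0382). Sterol synthesis genes were called higher in 17 of 19 cases (median 0.71, with 46.9% of all genes higher) but in none with matched cells (median 0.24, against 7.44%). Fdps, an enzyme of the mevalonate pathway, had 2.65 and 2.50 against 0.917 and 0.847 (1.44, adjusted p = 0.000767; matched 0.68, adjusted p = 0.0821). Against G2/M B-MF, 11 of 19 were called higher in S-phase cells (8.04% of all genes higher), among them Cyp51 with 1.24 and 1.31 against 0.64 and 0.509 (1.03, adjusted p = 0.00817).

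The remaining lists are read beside the same 46.9% of all genes called higher and 7.15% called lower, or 7.44% and 3.99% with matched cells. Of 13 genes of the mitochondrial genome, 1 was called lower, mt-Co1, with 209 and 216 against 264 and 253 (-0.28, adjusted p = 0.0398), and none with matched cells. Of 14 interferon response genes, 1 was called higher (Xaf1, 0.47, or 0.25 without B-MF 2) and 2 lower (Ifit3 and Irf7), and none with matched cells. Iron handling genes gave 1 higher (Hmox1, 0.41, or 0.20 without B-MF 1) and 3 lower of 8, and the 2 that were lower with matched cells were Slc40a1, the iron exporter ferroportin, with 3.08 and 2.98 against 4.40 and 4.35 (-0.52, adjusted p = 0.0058; matched -0.92, adjusted p = 0.0133), and Ncoa4, the receptor for ferritin breakdown (-0.59, adjusted p = 0.00654; matched -0.72, adjusted p = 0.0287).

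**Figure D4:**
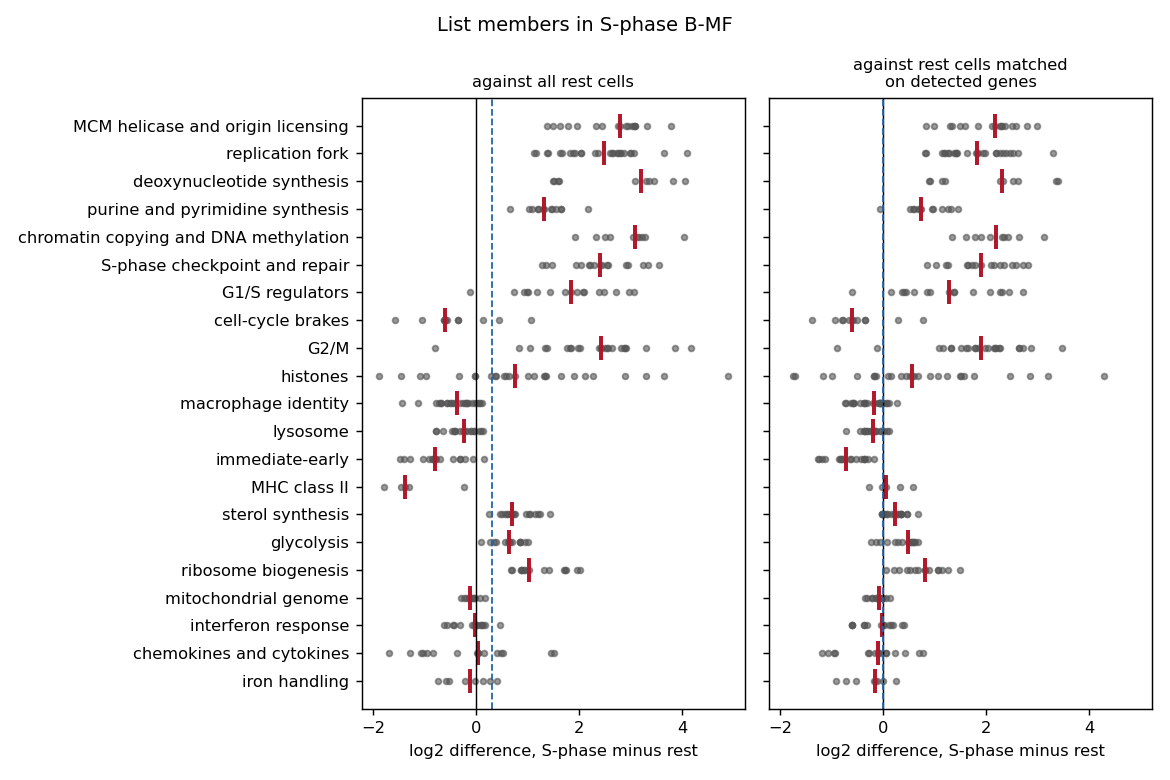
Log2 difference in mean corrected count, S-phase minus rest B-MF, for the tested members (grey dots, markers included) of 21 gene lists, against all rest cells (left) and rest cells matched on detected genes (right), with a red tick at each list's median and a blue dashed line at the median of all genes (0.31 and -0.02). Replication lists lay far to the right in both panels, with the MCM list at 2.80 and 2.17, while immediate-early genes lay to the left (-0.79 and -0.71) and MHC class II genes lay at -1.37 and 0.05, the latter with opposite library medians of 1.55 and -1.45.

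The same genes were followed along the summed count of Mcm5 and Mcm6 over all B-MF outside G2/M, as a description. In B-MF 1 the mean of Junb was 16.5 in cells with a sum of 0, 13.3 at 1 to 2, 8.53 at 3 to 4, 7.28 at 5 to 7, 6.39 at 8 to 11 and 4.65 at 12 or more. In B-MF 2 it was 15.2, 11.6, 8.36, 7.0, 5.12 and 4.18 over the same steps, so most of the difference lay below the threshold of 8. Npm1 went from 8.0 to 21.1 in B-MF 1, and in B-MF 2 from 8.06 to 14.4 at 8 to 11 and 13.2 in the top step, which held 11 cells there and 23 in B-MF 1. Ccl2 went from 7.87 at 0 to 22.0 at 5 to 7 and 32.4 at 12 or more in B-MF 1, and from 7.31 to 24.7 and 26.7 in B-MF 2. Median detected genes went from 3741 to 4954 and from 3273 to 4481 between the first and the last step, and their part in these gradients was not tested.

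**Figure D5:**
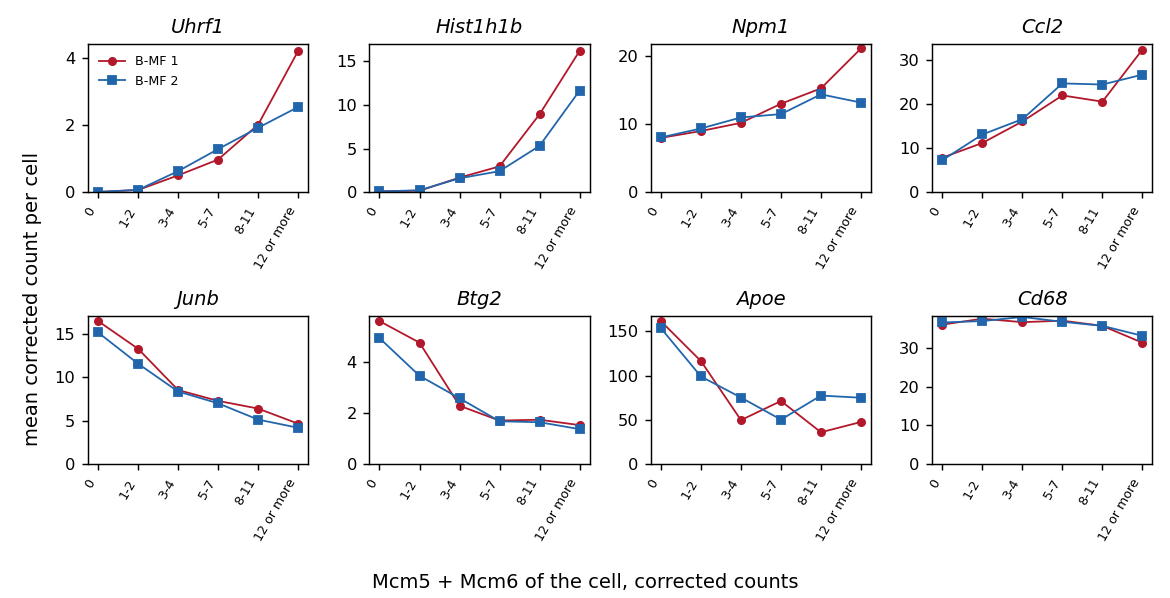
Mean corrected count of Uhrf1, Hist1h1b, Npm1, Ccl2, Junb, Btg2, Apoe and Cd68 in B-MF outside G2/M, by steps of the summed count of Mcm5 and Mcm6 per cell (0, 1 to 2, 3 to 4, 5 to 7, 8 to 11, 12 or more), 1 line for each of the 2 libraries. Uhrf1 and Hist1h1b were higher at each further step in both libraries, Junb went from 16.5 to 4.65 and from 15.2 to 4.18, and Cd68 stayed between 31.3 and 38.0.

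Cells that met the same rule were also present in the monocyte cultures. Mo-MF 1 held 52 among 4846 cells (1.07%, exact 95% interval 0.802 to 1.40) and Mo-MF 2 held 75 among 5389 (1.39%, 1.10 to 1.74), 127 in all, and the shares of the B-MF libraries (1.51% and 0.976%) lay on both sides of them. Of the Mo-MF that met the rule, 3 and 4 carried at least 10 counts of S100a8, S100a9 and Ngp, genes of neutrophils, and were left out of the means that follow, as were 543 and 524 rest cells of these libraries. In the B-MF libraries such cells were kept, 1 of them an S-phase cell of B-MF 2 and 3 and 1 of them rest cells. For the 12 genes with the largest increase in S-phase B-MF, both Mo-MF libraries also had the higher value in cells meeting the rule, and for the 12 with the largest decrease both had the lower value. The same rule chose these Mo-MF cells, and all of the 12 higher genes but Slfn9 were histone, replication or mitosis genes. The direction of those genes was thus largely fixed in advance and is only a description. Over all 9208 genes, 66.6% were higher and 18.3% lower in both Mo-MF libraries. The difference of Junb was -1.70 and -1.12, that of Nop56 2.11 and 2.2 and that of Ccl2 2.30 and 2.78 in the Mo-MF libraries. Values of the B-MF and Mo-MF cells were not tested against each other.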

How the data were processed

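The authors deposited 1 table of the cultured cells, read through Cell Ranger, STAR and mm10 per the labels, with SCTransform per the methods, which also kept cells with at least 1000 detected genes. Its deposited values were the natural log of 1 plus a corrected count, and expm1 returned whole numbers. Correction levels depth across cells, and the depth before it is unknown here. Means of these counts were taken per library and fraction, and log2(mean + 0.1) was compared with limma 3.58.1 in R 4.3.3 after a filter on a mean of at least 0.1, leaving out the 4 genes of the rule, over 6 fraction means with 2 residual degrees of freedom. The fit was also run on simulated data, and the outcome is not reported here. Fractions were cut from the same library, which pairs them, so the library was a block. The means were not weighted by their numbers of cells. Doublets were not searched for. The members and lists were chosen with earlier results of these data known.

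With the rule's genes and the 3 markers left out, the text names the 12 highest and 12 lowest genes against rest B-MF and the 6 highest and 6 lowest against G2/M B-MF, at an adjusted p of 0.05 or less with 1 sign in both libraries. It also names up to 4 members of each list, the 3 markers among them. Other list members were named after their values were seen. Alternatives changed the block, the pseudocount, the filter, the scaling, the thresholds of the rule, the rest cells, the fractions fitted and the library. A prior spread that follows the mean, and the omission of cells with collagen or decorin counts, were added after seeing the data. Promoters came from RefSeq (GRCm38.p6), by gene symbol. Tumor macrophage and ATAC libraries were not used here.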

Additional observations from a re-analysis of the deposited data

Results flagged for a closer look

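Of the 114 genes named by the rule given in the methods, the markers included, 3 had a difference between S-phase and rest cells that went one way in every B-MF library and the opposite way in every Mo-MF library. The difference between cultures was not tested. Over all 347 tested list members, the markers included, 17 did so. Of these 17, 6 had been called against rest B-MF. The 6 were the 3 below with C1qb, C1qc and Cxcl1, named after their values were seen. No share over all genes tested stands beside these counts, so they are not read as a result about the lists. For C1qa, a subunit of complement C1q, the log2 differences were -0.67 and -0.76 in B-MF against 1.13 and 0.54 in Mo-MF, a gap of -1.55 between the means. For the chemokine Ccl8 they were -1.77 and -0.77 against 0.40 and 0.82, a gap of -1.88. For Ifit3, an interferon-induced gene, they were -0.42 and -0.83 against 0.24 and 1.06, a gap of -1.27. Against matched rest cells the B-MF differences were -0.46 and -0.25 for C1qa, -0.12 and -0.07 for Ccl8 and 0.13 and -1.36 for Ifit3, and none of the 3 genes passed the test (adjusted p = 0.193, 0.812 and 0.375 with limma). Mo-MF were not matched.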

How the results depend on the processing

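Without the replicate block for the library, 4068 genes were higher and 609 lower in S-phase than in rest B-MF, and 619 higher and 507 lower than in G2/M B-MF, where the fit with the block gave 4318, 658, 740 and 594. With rest cells matched on detected genes, 700 were higher and 375 lower than rest. The same fit gave 104 higher and 156 lower than G2/M, where the larger count changed side. The S-phase and G2/M cells of that fit were unchanged. Only the rest cells differed, and they enter this comparison through the filter and the spread shared by the fractions. At a sum of Mcm5 and Mcm6 of at least 12, 2096 were higher and 417 lower than rest, and 58 higher and 37 lower than G2/M; at least 6 gave 885 higher and 977 lower than G2/M, where the larger count also changed side. Without the filter on low means, 135 were higher and 161 lower than G2/M. Shares meeting the rule in B-MF 1, B-MF 2, Mo-MF 1 and Mo-MF 2 were 2.67%, 1.82%, 2.02% and 2.39% at 6, and 0.439%, 0.207%, 0.392% and 0.464% at 12. Among 114 named genes, 106 of which passed the test, matching reversed 5 (Bank1 -0.10, Ccnb2 -0.11, Cd74 0.32, H2-Eb1 0.0506, Pttg1 -0.17) and ended 32 other calls, and the sum of at least 12 ended 19. The cause was not tested. Every other alternative lost between 0 and 13 of the named calls and reversed none. Leaving out either library left no degrees of freedom for a test, so no count of calls could be given. All 106 differences that passed the test kept their sign. For the genes chosen with 1 sign in both libraries this was fixed in advance, so it says nothing about them. Col1a1 and Col1a2, which did not pass, changed sign without B-MF 1 (-0.45 and -0.88). With 2 libraries of each culture, corrected counts and 131 cells, small differences in low genes could not be resolved.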
